A study of Mus musculus with 24 samples.

Results

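Genes of the cell cycle and of DNA replication were followed in mouse bone-marrow-derived macrophages, which are macrophages grown from marrow precursors in the growth factor M-CSF. The set was given by name and held 43 genes out of 23337 symbols with a row in the total RNA tables. It comprised 4 G1 cyclins (Ccnd1, Ccnd2, Ccne1 and Ccne2), 20 S phase genes that license, copy or supply DNA, and 19 mitotic genes from Ccna2 to Ube2c. The rule that names them uses no measured value, but they were chosen with earlier results of these data known. Ribosome-protected fragments (footprints, the pieces of mRNA shielded by a translating ribosome) and total RNA were sequenced from 6 cultures of Apobec1-/- mice (KO) and 6 cultures of wild-type mice (WT), 1 library of each kind per culture. All mice carried the C57BL/6J background per the labels, were 6 to 12 weeks old and were littermates or matched for age. Every culture grew for 7 days in 20 ng/mL M-CSF, with part of the medium exchanged every 3 days for medium holding 40 ng/mL. The 12 cultures fell into 3 labelled batches. Batch 3 held KO5, KO6, WT5 and WT6, batch 2 held KO2, KO3, KO4 and WT4, and batch 1 held KO1, WT1, WT2 and WT3. Apobec1, the gene targeted in KO mice, encodes an RNA-editing cytidine deaminase. Whether the cultures stem from separate animals is not labelled; p-values then describe only the spread between cultures, which may be technical.

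A cell enters the cycle in G1, when D-type cyclins and then E-type cyclins release the E2F transcription factors, which switch on the genes for replication licensing and nucleotide synthesis. The mitotic genes are switched on later, in G2, by a complex that acts through a short element called the cell cycle genes homology region (CHR) and nearby CCAAT boxes, and their protein products are largely destroyed at the end of mitosis. Macrophage precursors divide in response to M-CSF and leave the cycle as they mature, so both groups of transcripts are known as markers of cells still dividing in such cultures.

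Counts assigned to genes ran from 5077478 to 12059361 per total RNA library and from 29561 to 3714912 per footprint library. The batch 3 footprint libraries were the shallowest, at 29561 to 223504 counts, against 955199 to 3714912 in batch 2 and 325979 to 1996862 in batch 1. All 43 genes had a row in every total RNA table, and 40 were listed in all 12 footprint tables. Ccnd2, Tyms and Aurka had 0 footprint counts in WT6, the shallowest library. Footprints of Apobec1 itself lay between 0 and 24.9 CPM (counts per 1000000 after TMM scaling) in KO cultures, against 61.0 to 104.6 CPM in WT cultures, while its total RNA was 605 to 1278 CPM in KO cultures, against 313 to 475 CPM in WT cultures. By the labels' protocol the cells had been checked by flow cytometry for F4/80 and CD11b. Macrophage markers (9 of 11 with a row, none at 0) summed to 15352 to 25212 CPM of total RNA in batch 3, 27702 to 49181 in batch 2 and 21665 to 28886 in batch 1. In the tests given below, 7 of these 9 were called lower and 0 higher in batch 3 than in batch 1. All 9 were called lower in batch 3 than in batch 2. Of all genes, 22.3% and 24.5% were called lower in those comparisons. Batch 3 also differed from the others in sex-linked transcripts, with 172 to 386 Xist counts, against 2 to 6 in batch 2 and 2 to 11 in batch 1. Ddx3y had 0 to 1 counts in batch 3, 374 to 639 in batch 2 and 1038 to 1694 in batch 1. Batch 3 therefore cannot be told apart from sex-linked expression. No batch can be told apart from footprint depth or from any handling that differed with it.

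S phase and mitotic genes both stood higher in batch 3 than in batch 1. Their order across the cultures differed in part. The level of a group is given here as the mean log2 CPM over its genes, and it is a description with no test. In total RNA, mitotic genes averaged 6.34, 6.20, 6.11 and 6.27 in KO5, KO6, WT5 and WT6 of batch 3. They averaged 5.42, 6.14, 5.42 and 5.29 in KO2, KO3, KO4 and WT4 of batch 2, and 4.97, 5.09, 5.09 and 5.16 in KO1, WT1, WT2 and WT3 of batch 1. Batch 3 and batch 1 did not overlap, and within batch 2 the culture KO3 stood at the height of batch 3 while the other 3 cultures lay near the middle. S phase genes averaged 6.32, 6.06, 5.89 and 5.92 in the same order of batch 3 cultures. They averaged 5.73, 5.76, 5.80 and 5.29 in KO2, KO3, KO4 and WT4, and 5.32, 5.52, 5.46 and 5.47 in KO1, WT1, WT2 and WT3. KO3 was thus not high for S phase genes, and WT4 was the lowest culture of all 12 for them. The mean over all 10942 genes tested stayed between 4.83 and 4.93 in the 12 cultures. In footprints the mean over all 7208 genes tested was 4.69 in WT6 and 5.57 to 5.91 in the other cultures.

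The mitotic level minus the S phase level compares 2 sets of genes, so its sign carries no meaning and only its order across the cultures is described. In total RNA it was 0.02, 0.13, 0.23 and 0.36 log2 units in KO5, KO6, WT5 and WT6. It was -0.31, 0.38, -0.39 and -0.00 in KO2, KO3, KO4 and WT4, and -0.35, -0.42, -0.37 and -0.31 in KO1, WT1, WT2 and WT3. KO3 and the batch 3 cultures had the 5 highest values, followed by WT4, while KO2 and KO4 lay near the batch 1 cultures. In footprints KO3 was again the highest, at 0.34, and the batch 3 cultures, at -0.29 to 0.02, lay above the batch 1 cultures, at -0.61 to -0.47. In bulk cultures, fewer cells of a type and less RNA per cell cannot be told apart.

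**Figure D1:**
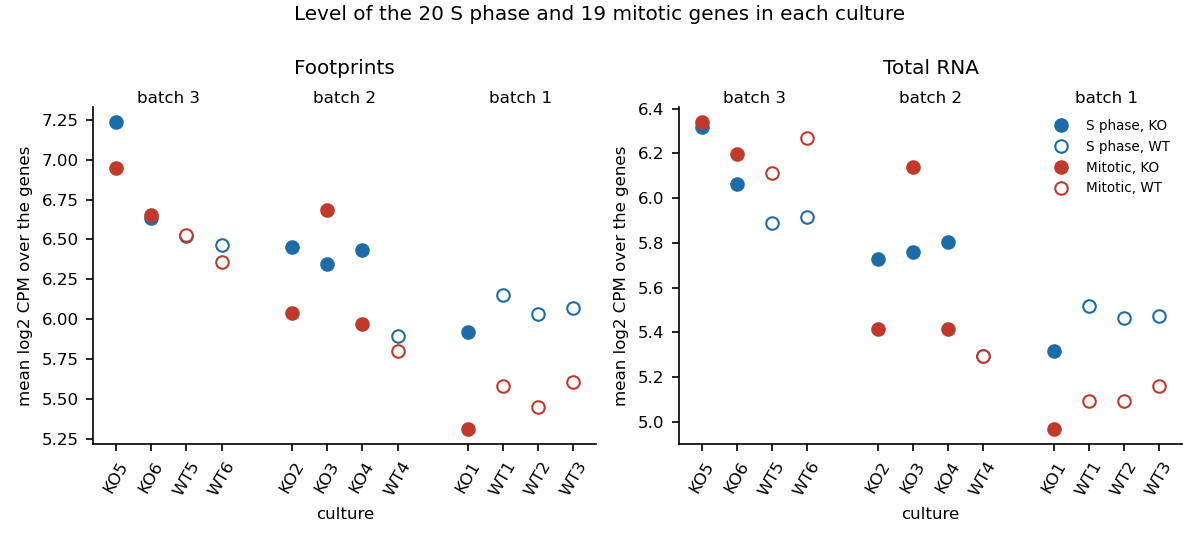
Mean log2 CPM over the 20 S phase genes (blue) and the 19 mitotic genes (red) in each culture (x axis), for footprints on the left and total RNA on the right; filled points are KO cultures, open points WT cultures. In total RNA mitotic genes stood at 6.11 to 6.34 in batch 3 and 4.97 to 5.16 in batch 1, and KO3 of batch 2 stood at 6.14 for mitotic genes but 5.76 for S phase genes.

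Between batch 3 and batch 1, 32 of the 43 genes were higher in batch 3 and 1 was lower in total RNA (edgeR quasi-likelihood test, adjusted p under 0.05 over all 10942 genes tested). Over all genes, 23% were called higher and 22.3% lower, about as many one way as the other. Of the mitotic genes, 18 of 19 rose in batch 3, with a median log2 fold change of 1.14, and of the S phase genes 12 of 20 rose, with a median of 0.55; over all genes the median was 0.01. In 34 of the 43 genes every batch 3 culture lay above every batch 1 culture and in 1 every batch 3 culture lay below, against 23.3% and 23.5% of all genes. The 18 mitotic and 12 S phase calls were 18 to 19 and 11 to 15 in the other settings tried. Neutrophil and granulocyte precursor markers (15 of 15 with a row, none at 0) summed to 461 to 617 CPM in batch 3, 154 to 597 in batch 2 and 57.7 to 67.4 in batch 1, and mast cell markers (6 with a row, Mcpt4 and Tpsb2 at 0) to 40.5 to 69.2, 1.82 to 4.26 and 6.69 to 12.7. Between batch 3 and batch 1, monocyte markers (8 of 9 with a row, none at 0) summed to 243 to 305 CPM in batch 3 and 114 to 162 in batch 1, stromal and endothelial markers (7 of 7, none at 0) to 27.4 to 48.2 and 12.9 to 15.9, and dendritic cell markers (6 of 6, none at 0) to 13.8 to 15.6 and 96.1 to 153. Tested gene by gene, 8 of 11 neutrophil and granulocyte precursor markers were called higher and 2 lower. Of 8 monocyte markers tested, 6 were called higher and 1 lower. Only 1 gene passed the filter on low counts in each of the mast cell, stromal and endothelial, and dendritic cell lists. Of 9 macrophage markers tested, 7 were called lower and 0 higher, with a median of -1.25. The part of these markers in the cell cycle differences was not tested.

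The G1 cyclins split. Ccnd2, a D-type cyclin that partners CDK4 and CDK6 and responds to growth factors, had 47.3, 59.0, 19.8 and 35.1 CPM of total RNA in KO5, KO6, WT5 and WT6, against 68.7, 72.1, 60.1 and 64.1 CPM in KO1, WT1, WT2 and WT3. No batch 3 culture reached any batch 1 culture, and Ccnd2 fell in batch 3 by 1.01 on the log2 scale (SE 0.23, adjusted p = 0.0031). With no genotype term in the model its change was -0.71 (adjusted p = 0.092), so that the 1 lower call was lost and 35 members were called higher. Ccnd1, the related D-type cyclin, had a log2 fold change of -0.30 (SE 0.29) and was not called. The E-type cyclins, which activate CDK2 at the entry to S phase, went the other way. Ccne1 had 30.6, 25.6, 21.6 and 19.8 CPM in KO5, KO6, WT5 and WT6, against 9.13, 9.86, 11 and 9.12 CPM in KO1, WT1, WT2 and WT3, a log2 fold change of 1.32 (SE 0.19, adjusted p = 9.5e-05). Ccne2 rose by 1.00 (SE 0.15, adjusted p = 0.00013).

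Among the S phase genes, those for nucleotide supply all rose. Rrm2, the cell-cycle-limited subunit of ribonucleotide reductase, which makes the DNA building blocks, had 139.9, 125.8, 93.1 and 111.1 CPM in KO5, KO6, WT5 and WT6, against 38.1, 49.4, 49.0 and 52.3 CPM in KO1, WT1, WT2 and WT3. All 4 batch 3 cultures lay above all batch 1 cultures, with a log2 fold change of 1.25 (SE 0.16, adjusted p = 3.4e-05). Tyms (thymidylate synthase) rose by 1.17 (SE 0.18), Dut (the enzyme that clears dUTP) by 0.98 (SE 0.12) and Tk1 (thymidine kinase) by 0.96 (SE 0.17). Rrm1, the larger and more stable reductase subunit, rose by 0.56 (SE 0.11). These 5 genes were all called.

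The subunits of the replicative helicase differed among themselves. Its 6 subunits, Mcm2 to Mcm7, form the ring that unwinds DNA, and of them Mcm3 (0.59, SE 0.13) and Mcm5 (0.49, SE 0.16) rose. Mcm7 (0.34), Mcm2 (0.10), Mcm4 (-0.06) and Mcm6 (-0.11) were not called on the log2 scale of batch 3 over batch 1. Mcm6 had 264, 208, 200.1 and 206.5 CPM in KO5, KO6, WT5 and WT6, against 203, 243, 223 and 224 CPM in KO1, WT1, WT2 and WT3, so that the batches overlapped. Of the loaders, Cdc6 rose by 0.58 (SE 0.14), while Cdt1 had 0.24 (SE 0.15) and was not called. Gins2, a subunit of the GINS complex that completes the active helicase, rose by 0.85 (SE 0.12).

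At the fork, Prim1 (the primase subunit that lays the RNA primer) rose by 0.97 (SE 0.15), Uhrf1 (which carries DNA methylation onto the new strand) by 0.74 (SE 0.14) and Fen1 (the nuclease that trims Okazaki fragments) by 0.54 (SE 0.10). Pcna, the sliding clamp, was among the 8 S phase genes not called, with a log2 fold change of 0.23 (SE 0.14). It had 786, 648, 677 and 579 CPM in KO5, KO6, WT5 and WT6, against 499, 587, 564 and 534 CPM in KO1, WT1, WT2 and WT3. Pola1, the catalytic subunit of the priming polymerase, had 0.20 (SE 0.14), and Lig1, the ligase that seals Okazaki fragments, 0.38 (SE 0.16). Pcna and Tyms have pseudogenes named after them in the annotation, and how reads with several alignments were handled is not given in the sources used here, so their counts are uncertain.

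All mitotic genes but 1 rose. Ube2c, which hands ubiquitin to the anaphase-promoting complex, had 19.6, 24, 15.4 and 21.1 CPM in KO5, KO6, WT5 and WT6, against 5.03, 5.63, 5.02 and 6.73 CPM in KO1, WT1, WT2 and WT3. The batches did not overlap and its log2 fold change, 1.79 (SE 0.30, adjusted p = 0.00043), was the largest of the 43. Ccna2, the cyclin A that acts in both S phase and G2, had 161, 137, 135 and 144 CPM in KO5, KO6, WT5 and WT6, against 49.0, 49.0, 46.1 and 52.9 CPM in KO1, WT1, WT2 and WT3. It had the smallest adjusted p of the 43, at 2.8e-06, with a log2 fold change of 1.50 (SE 0.14). Birc5 (survivin, of the chromosomal passenger complex) rose by 1.61 (SE 0.17), Ccnb1 and Ccnb2 (the B-type cyclins that drive mitosis) by 1.50 (SE 0.27) and 1.36 (SE 0.21), and Kif23 (a kinesin of cytokinesis) by 1.44 (SE 0.17).

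The mitotic kinases followed. Plk1, which drives centrosome maturation and mitotic exit, rose by 1.42 (SE 0.24), Aurka, the spindle pole kinase, by 1.33 (SE 0.17), Bub1, of the spindle checkpoint, by 1.14 (SE 0.15), Aurkb, of the passenger complex, by 0.90 (SE 0.17) and Cdk1, the partner of the B-type cyclins, by 0.69 (SE 0.14). Cdc20, an activator of the anaphase-promoting complex, rose by 1.28 (SE 0.18). Among genes of the spindle and of chromosome structure, Nusap1 stood at 1.13 (SE 0.17), Kif11 at 0.84 (SE 0.16), Tpx2 at 0.82 (SE 0.15), Cenpf at 0.80 (SE 0.19) and Top2a, the topoisomerase that untangles sister chromatids, and Cenpe, a kinetochore motor, both at 0.74 (SE 0.14 and 0.15). Mki67, the widely used marker of dividing cells, was the 1 mitotic gene not called, at 0.50 (SE 0.21, adjusted p = 0.071). It had 339, 362, 234 and 368 CPM in KO5, KO6, WT5 and WT6, against 189, 241, 205 and 227 CPM in KO1, WT1, WT2 and WT3, so that WT5 lay within the range of batch 1. Ccnb1 and Ccnb2 also have named pseudogenes, and 11 of the 43 genes overlap another protein-coding gene, Ccna2, Cdc20, Aurka and Nusap1 among the mitotic ones. The counting is not stated to use strand, so their reads cannot be told apart from those of the overlapping genes.

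**Figure D2:**
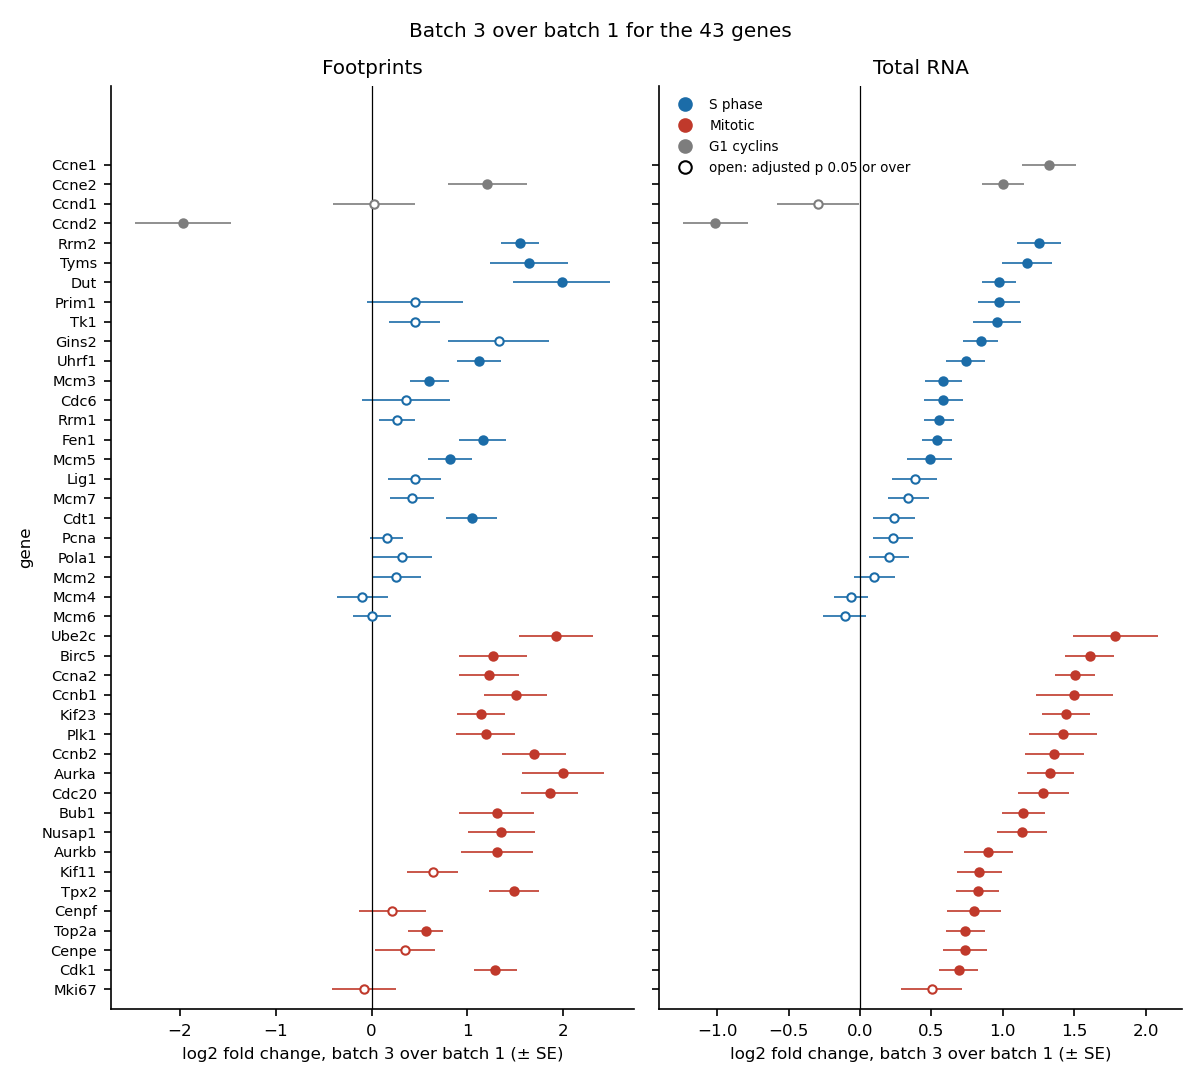
Log2 fold change of batch 3 over batch 1 (x axis, bars are SE) for each of the 43 genes (y axis), footprints left and total RNA right; grey marks G1 cyclins, blue S phase genes, red mitotic genes, and filled points have an adjusted p under 0.05. In total RNA the called values ran up to 1.79 for Ube2c, with Ccnd2 alone called lower, at -1.01.

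In footprints, of the 42 genes that passed the filter on low counts (Ccne1 did not), 24 were higher in batch 3 than in batch 1 and 1, Ccnd2, was lower; over all 7208 genes tested, 9.54% were higher and 11.2% lower. The called genes were 15 of 19 mitotic and 8 of 20 S phase genes, with median log2 fold changes of 1.29 and 0.45. Aurka (2.00, SE 0.43), Dut (1.98, SE 0.51) and Ube2c (1.92, SE 0.39) had the largest values. In WT6, the shallowest library, 3 counts amount to 101 CPM, and Aurka had none there. Leaving out the shallow pair KO6 and WT6, a choice made after seeing the data, gave 21 calls in place of 25. In that fit 16.7% of all genes were called.

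Batch 3 against batch 2 gave 29 of 43 genes higher and 0 lower in total RNA, where 24.7% of all genes were higher and 24.5% lower. The 29 were 14 mitotic, 12 S phase and 3 G1 genes, with medians of 0.72, 0.42 and 0.70. Bub1 (1.23, SE 0.15), Ccna2 (1.22, SE 0.14) and Ccne2 (1.18, SE 0.15) had the largest log2 fold changes. Plk1 (0.15, SE 0.23) and Ube2c (0.12, SE 0.28), 2 of the largest between batch 3 and batch 1, were not called here. Pcna, which was not called between batch 3 and batch 1, rose by 0.91 (SE 0.14). In footprints 18 of 42 were higher and 0 lower, where 10.9% of all genes were higher and 11.7% lower. Without KO5, the deepest batch 3 footprint library, 7 were called and 12.5% of all genes.

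Batch 2 against batch 1 gave 9 of 43 genes higher and 3 lower in total RNA, where 12.7% of all genes were higher and 10.8% lower. The 3 lower genes were Ccnd2 (-1.58, SE 0.25), Ccnd1 (-1.05, SE 0.33) and Pcna (-0.68, SE 0.16). The higher ones were 5 of 19 mitotic genes, 3 of 20 S phase genes and Ccne1. With 3 higher and 1 lower, the calls do not set the S phase genes apart from all genes. Ube2c had 12.5, 32.9, 12.6 and 17.6 CPM in KO2, KO3, KO4 and WT4, against 5.03, 5.63, 5.02 and 6.73 CPM in KO1, WT1, WT2 and WT3, a log2 fold change of 1.67 (SE 0.32). Plk1 had 17.7, 32.2, 19.1 and 16.9 CPM in KO2, KO3, KO4 and WT4, against 7.54, 9.11, 8.0 and 8.87 CPM in KO1, WT1, WT2 and WT3, a log2 fold change of 1.27 (SE 0.26). For both genes all batch 2 cultures lay above all batch 1 cultures, and KO3 was far above the others of its batch. Birc5, Aurkb and Aurka rose by 0.78, 0.68 and 0.62, and Gins2, Lig1 and Mcm3 by 0.65, 0.51 and 0.43. The count of 12 was 7 without WT3 and 7 without batch 3 (a choice made after seeing the data). It was 19 when genotype was left out of the model. In that order, 16.5%, 24.1% and 28.8% of all genes were called in those fits. KO1 is the only KO culture of batch 1. Without it 3 genes were higher and 5 lower, and 18.4% of all genes were called. In footprints 7 of 42 were higher and 1 lower, where 8% of all genes were higher and 7.37% lower. Without KO1, 1 was higher and 4 lower in footprints, and 14.6% of all genes were called.

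**Figure D3:**
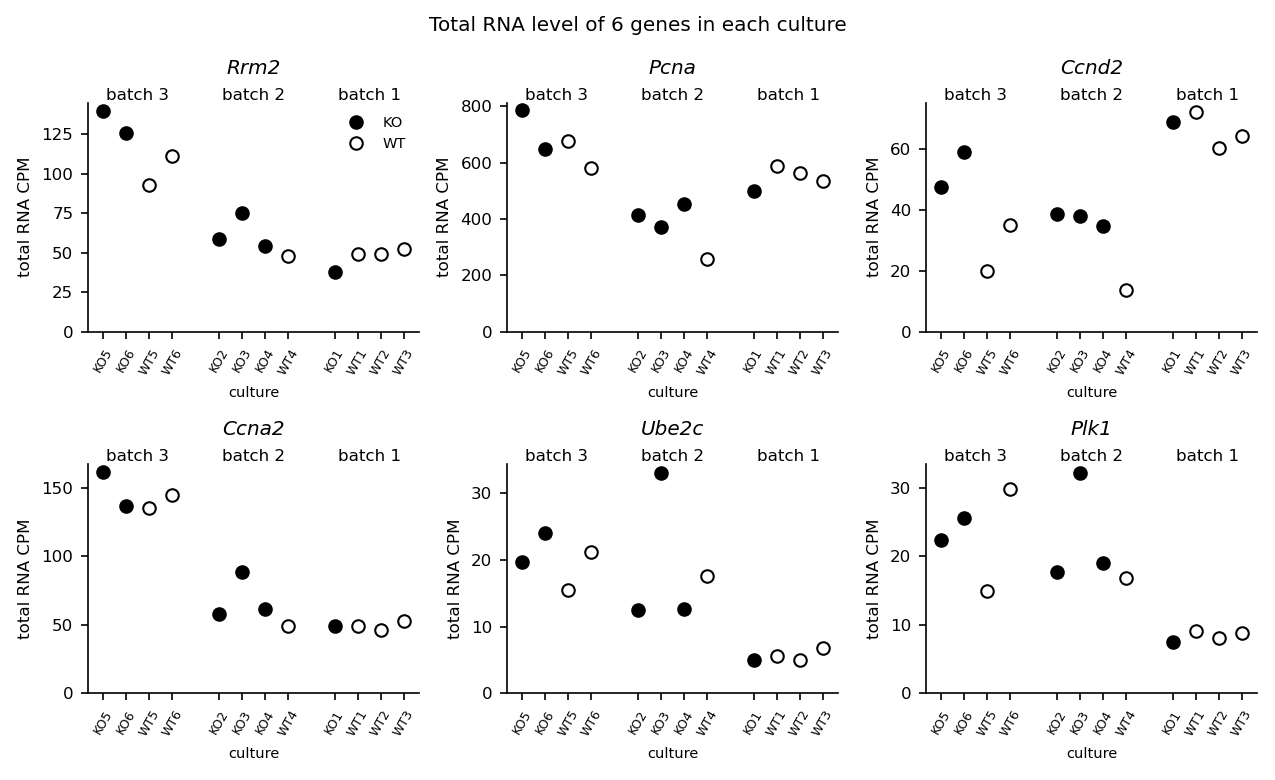
Total RNA CPM (y axes, from 0) of Rrm2, Pcna, Ccnd2, Ccna2, Ube2c and Plk1 in each culture (x axes), filled points KO and open points WT. Rrm2 and Ccna2 were highest in the batch 3 cultures, Ube2c and Plk1 were also high in KO3 of batch 2 (32.9 and 32.2 CPM), and Ccnd2 and Pcna were lowest in WT4 (13.8 and 257 CPM).

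The promoters of the members differed in the short elements named above, which is shown because S phase and mitotic genes moved by different amounts. Windows of 250 bases before to 50 bases after the start, from RefSeq on build GRCm38.p6, were found for 35 of the 43 genes; Ccnd1, Ccnd2, Ccne2, Mcm4, Gins2, Ccna2, Aurkb and Tpx2 had no entry. The E2F core was searched as TTTGGCGC or TTTCCCGC, the CHR as TTTGAA and the CCAAT box as CCAAT, on both strands, and no match overlapped a match of another motif. An E2F core was present in 7 of 18 S phase genes, in 0 of 16 mitotic genes and in 1.57% of the 32851 promoters of the table. A CHR was present in 11 of 16 mitotic genes, 2 of 18 S phase genes and 17.9% of all promoters, and a CCAAT box in 14 of 16 mitotic genes, 11 of 18 S phase genes and 37.4% of all promoters. These are letter matches in a fixed window and not measured sites.

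The 7 S phase genes with an E2F core were 4 of the 5 helicase subunits with an entry (Mcm3, Mcm5, Mcm6 and Mcm7, but not Mcm2), the loaders Cdc6 and Cdt1, and Pola1. Positions count from the start, negative before it, and the capitals mark the motif as read on the gene's own strand, where GCGGGAAA and GCGCCAAA are matches on the opposite strand.
Cdc6, motif from base -138: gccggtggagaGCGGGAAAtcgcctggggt
Cdt1, motif from base 33: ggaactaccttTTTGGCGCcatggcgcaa
Mcm3, motif from base 20: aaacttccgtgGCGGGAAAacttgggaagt
Mcm3, motif from base 39: acttgggaagtTTTGGCGCcaag
Mcm5, motif from base -149: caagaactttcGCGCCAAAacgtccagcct
Mcm6, motif from base -110: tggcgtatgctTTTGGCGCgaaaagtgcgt
Mcm6, motif from base -47: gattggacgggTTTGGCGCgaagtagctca
Mcm7, motif from base -165: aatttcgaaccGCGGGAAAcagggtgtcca
Pola1, motif from base -138: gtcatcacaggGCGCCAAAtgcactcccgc
Of these 7 genes 3 rose in batch 3 over batch 1, with a median log2 fold change of 0.34, and of the 11 S phase genes with an entry and no E2F core 8 rose, with a median of 0.74. Whole windows were looked at for Dut, Rrm2, Birc5 and Kif23; Dut and Birc5 held none of the 3 motifs and are not printed. Rrm2, with the largest S phase change, had no E2F core in its window and 1 CCAAT box, which starts 50 bases before the start (chr12:24708004-24708303, plus strand, box in capitals).
Rrm2 promoter: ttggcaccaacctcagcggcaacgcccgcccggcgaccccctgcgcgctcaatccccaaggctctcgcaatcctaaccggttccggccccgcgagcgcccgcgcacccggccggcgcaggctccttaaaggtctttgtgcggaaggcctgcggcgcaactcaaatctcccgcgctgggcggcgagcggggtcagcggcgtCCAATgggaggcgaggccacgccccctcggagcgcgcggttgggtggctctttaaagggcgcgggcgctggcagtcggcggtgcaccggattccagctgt

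The CHR match nearest to the start is shown for 10 of the 11 mitotic genes that have one, with TTTGAA or, on the opposite strand, TTCAAA in capitals.
Aurka, motif from base 33: aaaggagaaccTTTGAAttgtaacggct
Ccnb2, motif from base 5: gcggcgcggtaTTTGAAtcgcggaccgg
Cdc20, motif from base -18: gacagttgggtTTTGAAggagccaatga
Cdk1, motif from base -15: accgcggcgagTTTGAAactgctggcac
Cenpf, motif from base 3: gcggcgggcagTTTGAAtcgctcgtgct
Kif11, motif from base -19: cgtctccatttTTCAAAattgaggcgcg
Mki67, motif from base -98: cgccgttttggTTTGAAtcgggcgggct
Plk1, motif from base 31: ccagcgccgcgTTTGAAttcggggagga
Top2a, motif from base -23: ctagataaaggTTCAAAtgaaactaggg
Ube2c, motif from base -29: gagggttgcaaTTCAAAcgcgggcggcg
For Kif23, the whole window is given (chr9:61946750-61947049, minus strand), with its CCAAT box, which reads ATTGG on this strand from base -7, and its CHR from base 3 in capitals.
Kif23 promoter: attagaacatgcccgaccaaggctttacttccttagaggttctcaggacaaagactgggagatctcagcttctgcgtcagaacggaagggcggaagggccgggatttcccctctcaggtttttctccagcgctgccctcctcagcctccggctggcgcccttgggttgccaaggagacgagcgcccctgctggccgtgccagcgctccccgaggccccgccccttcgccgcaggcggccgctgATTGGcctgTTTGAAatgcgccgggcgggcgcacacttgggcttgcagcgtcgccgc
Of the 11 mitotic genes with a CHR 10 rose in batch 3 over batch 1, with a median of 1.28, and of the 5 with an entry and no CHR all 5 rose, with a median of 1.14.

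Between KO and WT cultures none of the 43 genes was called in total RNA, with batch in the model, where 0.00914% of all genes were higher and 0.00914% lower. At an unadjusted p under 0.05, 7 members were higher and 0 lower, against 209 and 303 of all genes tested; DESeq2 and limma called 0 members as well. The median log2 fold change of the members was 0.17, and 0.32 without KO1. Ccnd2 had the smallest p. Its total RNA ran from 34.7 through a median of 42.9 to 68.7 CPM in KO cultures and from 13.8 through 47.6 to 72.1 CPM in WT cultures, so the groups overlapped, with a log2 fold change of 0.78 (SE 0.21, adjusted p = 0.86). Without KO1 Ccnd2 was called, at 1.12 (adjusted p = 0.04985), and in the other settings its adjusted p ran from 0.059 by DESeq2 to 1.00. Ccnd2 lies 4.52 Mb from Apobec1 on chromosome 6 (chr6:127125162-127152188 on GRCm38.p6); the part of that position in its difference was not tested. Mcm4 had 63.9, 75.9 and 84.7 CPM as lowest, median and highest in KO cultures, and 52.5, 62.0 and 70.0 CPM in WT cultures, with a log2 fold change of 0.35 (SE 0.11, adjusted p = 0.86).

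The difference did not point the same way in the 3 batches. Within batch 3, with 2 KO and 2 WT cultures, all 20 S phase genes were higher in KO in total RNA, with a median difference of 0.28 log2 CPM, and 15 of 19 mitotic genes, with a median of 0.07. Within batch 2, 18 of 20 S phase and 15 of 19 mitotic genes were higher in KO, with medians of 0.48 and 0.39, and WT4 was the only WT culture there. Within batch 1, where KO1 was the only KO culture, 2 of 20 S phase and 3 of 19 mitotic genes were higher in KO, with medians of -0.15 and -0.18. Of all genes tested 51.0%, 49.2% and 49.3% were higher in KO in batches 3, 2 and 1. WT4 and KO1 each stood alone for their genotype. Neutrophil and granulocyte precursor markers summed to 154, 183 and 202 CPM in KO2, KO3 and KO4, against 597 CPM in WT4, and dendritic cell markers to 73.8, 50.7 and 81.6 CPM, against 11.4 CPM in WT4; their part in the difference was not tested.

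Mcm6 had the smallest p for a difference of the genotype effect between batches. Its KO minus WT difference was 0.20 log2 CPM in batch 3, 0.84 in batch 2 and -0.18 in batch 1. None of the 43 genes passed the test of genotype by batch, where 0.987% of all genes did. Mcm6 reached an adjusted p of 0.088. An unadjusted p under 0.05 was found for 21 of the 43 members, against 1399 of all 10942 genes tested. By DESeq2, limma and without the filter on low counts, 2, 4 and 9 members passed, Ccnd1 and Mcm6 among them each time, while 3.38%, 4.03% and 4.34% of all genes did. The Ccnd1 difference was 0.66 log2 CPM in batch 3, 1.43 in batch 2 and -0.28 in batch 1.

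**Figure D4:**
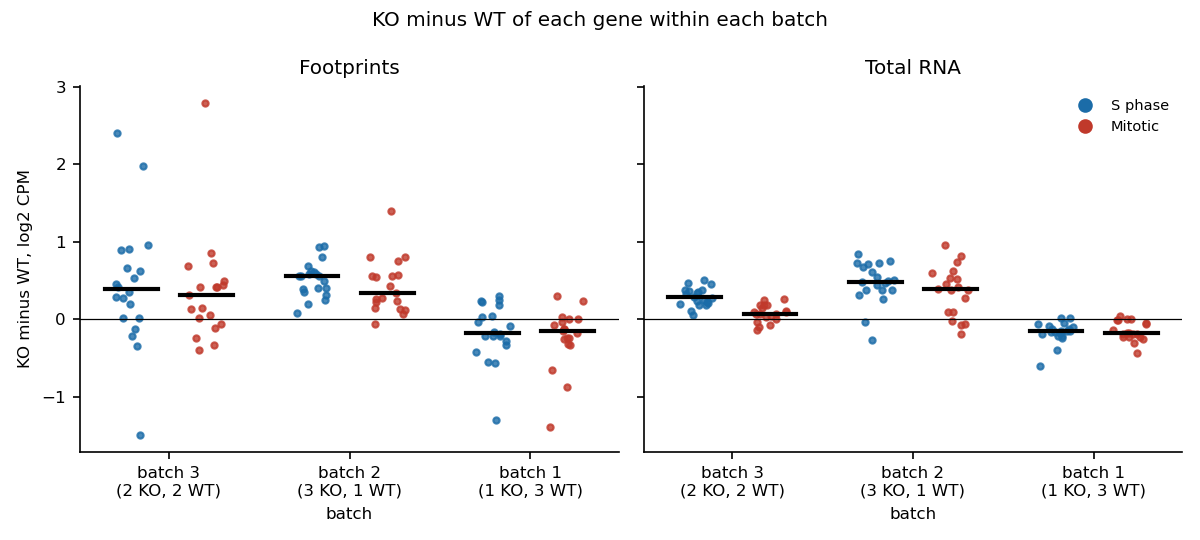
KO minus WT difference in log2 CPM (y axis) of each S phase gene (blue) and mitotic gene (red) within each batch (x axis), footprints left and total RNA right; black bars are medians. In total RNA the S phase medians were 0.28, 0.48 and -0.15 in batches 3, 2 and 1, and the mitotic medians 0.07, 0.39 and -0.18.

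Footprints gave 0 calls of 42 between KO and WT, where 0% of all genes were higher and 0.0832% lower. At an unadjusted p under 0.05, 12 members were higher and 0 lower, against 284 and 330 of all genes, and the 12 were 8 S phase genes, 3 mitotic genes and Ccnd2. Of the neutrophil and granulocyte precursor markers, 7 of 7 tested had a footprint fold change below 0 in KO, 2 of them called, with a median of -0.84, and in total RNA 10 of 11 were below 0 with 0 called; their part in the difference was not tested. Mcm6 had 315, 345 and 457 CPM of footprints as lowest, median and highest in KO cultures, and 184, 308 and 342 CPM in WT cultures, with a log2 fold change of 0.48 (SE 0.16, adjusted p = 0.35). The groups overlapped, since KO1 and KO6 lay below WT1. Without KO1 the count of calls was 9 of 43, all higher in KO, of which 5 were helicase subunits (Mcm3 to Mcm7) and the others Uhrf1, Ccnd2, Kif23 and Mki67; 3.45% of all genes were called in that fit. With only KO2, KO4, WT1 and WT4, the 4 cultures with at least 1000000 footprint counts, 15 members were called, but 14.5% of all genes were, and the comparison rested on WT4 alone as the WT culture of its batch. Within batch 3 the KO minus WT median over all genes tested was 0.24 log2 CPM in footprints, beside an S phase median of 0.39 and a mitotic median of 0.32. WT6, with the fewest footprint counts, belongs to that batch.

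A ratio of footprints to total RNA of each gene, relative to the average gene, was higher than average for most members. Over all cultures 27 of 42 genes had more footprints than total RNA and 2 had fewer, in a test over the 24 libraries where 34.7% of 7203 genes were higher and 36.7% lower. They were 15 of 20 S phase genes and 12 of 19 mitotic genes, with median log2 ratios of 0.60 and 0.46 against -0.01 over all genes. Plk1 (1.46, SE 0.16), Ube2c (1.43, SE 0.22), Tk1 (1.25, SE 0.12) and Mcm3 (1.22, SE 0.09) had the highest. All 6 helicase subunits were called higher, from 0.59 for Mcm5 to 1.22 for Mcm3. The 2 lower genes were Ccnd2 (-1.02, SE 0.22) and Ccna2 (-0.57, SE 0.11), both cyclins, and Ccne2 and Ccnd1 had -0.25 and -0.27 with no call. The test did not pair the 2 libraries of each culture. With that pairing 34 of 42 members were called, and 74.3% of all genes. Footprints were counted in coding sequence and the region counted for total RNA is not stated; its part in the differences between genes was not tested.

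**Figure D5:**
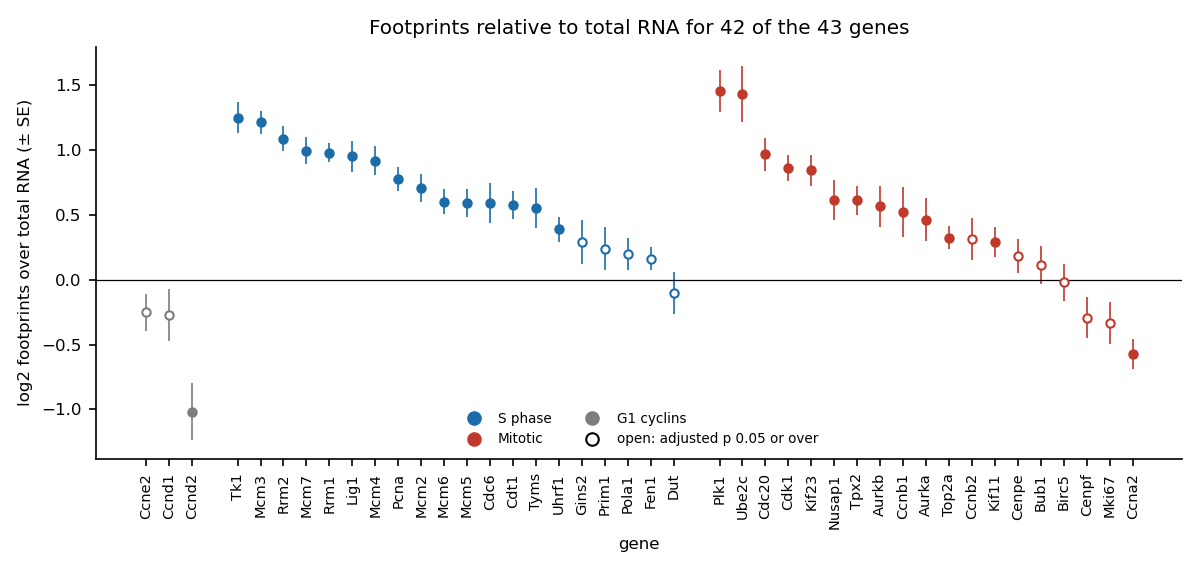
Log2 footprints over total RNA (y axis, bars are SE), relative to the average gene, for the 42 genes tested (x axis), by group and sorted within each; filled points have an adjusted p under 0.05. S phase genes ran from 1.25 for Tk1 to -0.10 for Dut and mitotic genes from 1.46 for Plk1 to -0.57 for Ccna2.

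Between KO and WT 0 of 42 genes were called, where 0% of all genes were higher and 0.0139% lower. Of the members, 1, Cdc6, had an unadjusted p under 0.05, at 0.54 (SE 0.26). Over all 7203 genes tested 86 were higher and 95 lower at that level. DESeq2 and limma called 0 members. Between batch 3 and batch 1 the ratio of no member was called, where 0.625% of all genes were higher and 0.514% lower. At an unadjusted p under 0.05, 3 members were higher and 0 lower, against 363 and 533 of all 7203 genes tested. DESeq2 and limma called 0 members here too. The SEs of the ratio changes of mitotic genes between these batches were 0.23 to 0.59.

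In batch 2 against batch 1 the ratios of 2 of 42 genes were called higher and 2 lower, a smaller share than the 8.26% and 8.41% of all genes, so that these calls do not set the cell cycle genes apart. Dut (1.09, SE 0.37) and Ccne2 (1.02, SE 0.30) were higher and Plk1 (-1.27, SE 0.36) and Tk1 (-0.95, SE 0.27) lower. The log2 ratio of Plk1 was 0.79, 0.55, 0.85 and 1.05 in KO2, KO3, KO4 and WT4, against 2.15, 1.71, 2.62 and 1.94 in KO1, WT1, WT2 and WT3. The batches did not overlap: Plk1 RNA was higher in batch 2 while its footprints, at 0.01 (SE 0.23), were not called. Against batch 2, batch 3 had higher ratios of Cdt1 (1.20, SE 0.28) and Uhrf1 (0.76, SE 0.24) and a lower ratio of Top2a (-0.73, SE 0.23), 2 of 42 higher and 1 lower, where 4.46% of all genes were higher and 5.51% lower. Top2a had log2 ratios of 0.03, -0.05, 0.19 and -0.19 in KO5, KO6, WT5 and WT6, against 0.79, 0.71, 0.71 and 0.77 in KO2, KO3, KO4 and WT4. Without KO1 only Ccne2 was called between batches 2 and 1, without WT4 only Dut, and without WT2 or WT3 Plk1 and Tk1. Without the cultures under 1000000 footprint counts none of these 4 was called, and Bub1 and Mki67 were. Between batches 3 and 2, Cdt1 alone was called without KO2, KO4 or KO6, Top2a alone without WT5, and none without KO5. In that order, 7.87%, 7.44%, 8.71%, 6.28% and 3.84% of all genes were called. When the 2 libraries of each culture were paired as a replicate block, 9 members were called between batches 2 and 1 (5 higher, 4 lower) and 10 between batches 3 and 2 (4 higher, 6 lower), with 31.7% and 17.5% of all genes called in those fits.

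Other genes of the same processes were counted in the same fits. Of 50 other replication genes, 36 were higher and 2 lower in batch 3 than in batch 1 in total RNA, with a median of 0.53. Of 56 other mitotic genes 50 were higher and 0 lower, with a median of 0.96. Over all genes tested 23% were higher and 22.3% lower. Cdca3, which promotes entry into mitosis, had the largest change of the mitotic list, at 2.32 (SE 0.18), and Gins3, a partner of Gins2 in the GINS complex, of the replication list, at 1.32 (SE 0.14). Of 36 regulators of the cycle, 18 were higher and 3 lower. The 4 with the largest changes were Cdc25c, the phosphatase that activates Cdk1, at 1.73 (SE 0.22), Mybl2 (1.55, SE 0.16) and Foxm1 (1.35, SE 0.21), both transcription factors of the late cell cycle genes, and E2f2 (1.20, SE 0.14).

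Of 11 inhibitors of cyclin-dependent kinases and related brakes on division, 3 were higher and 4 lower in batch 3 than in batch 1, where 23% of all genes were higher and 22.3% lower; counts this small do not set the list apart from all genes. Cdkn1c (p57), an inhibitor known from quiescent stem cells, had 208, 228, 244 and 214 CPM in KO5, KO6, WT5 and WT6, against 19.9, 15.6, 17.9 and 16.1 CPM in KO1, WT1, WT2 and WT3, a log2 fold change of 3.72 (SE 0.15, adjusted p = 1.2e-09). Cdkn2b (p15), an inhibitor of CDK4 and CDK6, had 0.42, 1.06, 0.60 and 0.74 CPM in KO5, KO6, WT5 and WT6, against 6.62, 9.03, 7.17 and 7.67 CPM in KO1, WT1, WT2 and WT3, a log2 fold change of -3.39 (SE 0.28). For both the batches did not overlap. Between KO and WT none of the 4 lists had a gene called in total RNA, with medians from -0.10 to 0.10. An unadjusted p under 0.05 was found for 3 of 50 replication, 2 of 56 mitotic, 3 of 36 regulator and 1 of 11 inhibitor genes. Over all 10942 genes tested 209 were higher and 303 lower at that level.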

How the data were processed

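Footprints and total RNA were measured in 12 cultures. The authors deposited whole-number read counts per gene for each library, in the layout of HTSeq; the submitters' processing notes name mm10 and, without role or order, DESeq2, DESeq, Cufflinks 2.2.1, TopHat2 2.1.0, Bowtie 1.1.2, HTSeq and Trim Galore. For strand setting, annotation and reads with several alignments, the choice is not given in the sources used here. In every file 5 summary lines were left out of totals and tests, and reads listed there as not unique were 27.8% to 51.2% in total RNA and 45.6% to 80.1% in footprints. The footprint tables list only genes with a count, and absent genes were set to 0. The authors' 2 tables of results were not used here.

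The counts were fitted with edgeR 4.0.16 in R 4.3.3 (quasi-likelihood test after TMM scaling, genes kept by filterByExpr at a minimum count of 10), with genotype and batch as terms and p-values adjusted by Benjamini-Hochberg over all genes tested; the threshold was 0.05. The ratio was tested in 1 model over both kinds of library. Its main fit held no term for culture, so the 2 libraries of each culture were treated as independent. Log2 CPM used a prior count of 2. Intervals and p-values cover the spread between libraries only. The fits were tested on simulated data. Alternatives were DESeq2 1.42.0, limma 3.58.1 with voom, other scaling, no filter, leaving out each culture, cultures under 1000000 footprint counts left out, other terms and blocks; leaving out batch 3, or KO6 and WT6, was chosen after seeing the data. The members and the lists were chosen with earlier results of these data known. Of each other list at most 4 called genes with the largest change were named. Whole promoters were considered for the 3 S phase and 3 mitotic genes with the smallest p between batches 3 and 1, of which 4 had an entry; the shorter windows were chosen after the values were seen. No 2 libraries of a group agreed within sampling noise. For KO and WT cultures of the same number, deviations of log2 CPM from the genotype mean were correlated. They correlated at 0.027 to 0.81 in total RNA and 0.073 to 0.33 in footprints. The highest values in total RNA, 0.81 and 0.78, were for numbers 5 and 6, both within batch 3. Numbers 2 and 3 each joined cultures of different batches. Shared batch and shared number cannot be told apart in these values, and numbers were not taken as pairs.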

Additional observations from a re-analysis of the deposited data

Results flagged for a closer look

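Of 110 groups of 6 cultures tested, 11 held a culture whose distance from the next was large against the group's range; chance flags about 1 in 20 groups. KO1 lay below the other KO cultures in log2 CPM of total RNA for Mcm3 (5.75, the others 6.52 to 6.85), Gins2 (3.23, the others 3.98 to 4.33) and Lig1 (4.57, the others 5.30 to 5.59). WT4 lay below the other WT cultures for the mean of the G1 cyclins (5.00, the others 5.82 to 5.91), Ccnd1 (7.22, the others 8.61 to 9.16), Mcm6 (6.92, the others 7.65 to 7.93), Pcna (8.01, the others 9.06 to 9.40) and Pola1 (5.12, the others 5.65 to 5.85). WT6 lay above the other WT cultures for Mki67 (8.53, the others 7.68 to 7.91). In WT6, the shallowest footprint library, the mean log2 footprint to RNA ratio of mitotic genes was 0.087, with the others at 0.36 to 0.51. Over all 7203 genes tested that mean was -1.19 in WT6 and -0.07 to -0.01 in the other WT cultures. For S phase genes that mean was 0.55 in WT6 and 0.57 to 0.64 in the other WT cultures. Only 5765 genes had a footprint count in WT6. The part of depth in these values was not tested. The mitotic minus S phase difference of the ratio was -0.47 in WT6, with the others at -0.22 to -0.09. KO1 was the only KO culture of batch 1 and WT4 the only WT culture of batch 2.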

How the results depend on the processing

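Counts of called members stayed within 1.5 times the main count in all settings tried for batch 3 over batch 1 (33 in total RNA, 32 to 37 without 1 culture; 25 in footprints, 18 to 26), for batch 3 over batch 2 in total RNA (29; 21 to 31) and for footprints over total RNA (29; 26 to 31). Between KO and WT, leaving out a culture gave 0 to 1 in total RNA (Ccnd2, without KO1), 0 to 9 in footprints and 0 to 0 in the ratio; without cultures under 1000000 footprint counts the footprints gave 15. The replicate block of culture numbers gave 0 in all 3. Batch 2 over batch 1 gave 12 in total RNA, with 7 to 12 without 1 culture. It gave 19 with no genotype term and 7 without batch 3. In footprints it gave 8, with 5 to 11, 13 with no genotype term and 3 by limma. In the footprint fits with no genotype term and by limma, 15.8% and 8.71% of all genes were called. In footprints without the shallow cultures, WT1 alone stood for batch 1, and most of the called members were lower in batch 2. Batch 3 over batch 2 gave 18 in footprints, with 7 to 21. For the ratio, batch 2 over batch 1 gave 4, with 1 to 4, 2 without shallow cultures (Bub1 and Mki67, neither among the 4) and 9 with the replicate block of each culture's libraries; batch 3 over batch 2 gave 3, with 0 to 4, 1 by limma, 1 without KO6 and WT6 and 10 with that block. Genotype by batch gave 0, with 2 by DESeq2, 4 by limma, 9 with no filter and 0 to 2 without 1 culture; it could not be fitted without KO1 or WT4. The footprint change of Ccnd2 between KO and WT was -0.36 with no batch term (adjusted p = 1.00), against 0.76. The cause of these shifts was not tested.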
